A study of Mus musculus with 2 samples.

Results

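Splice junctions that compete for the same splice site were examined in the mouse adrenal gland. A junction was a member when it had 100 or more reads, a score of 0.1 or less and a span over 100 and under 50000 bases, and shared its donor or its acceptor with at least 1 other such junction on the same strand. These conditions selected 2300 of the 32793 junctions that met the read, score and span limits, or 7.01%, and of 378838 junctions in all. The members formed 1237 groups around a shared site, 616 around a donor and 621 around an acceptor, and 280 members belonged to a group of each kind. Poly(A) RNA longer than 200 nt was sequenced from adrenal glands of C57BL/6J mice aged 8 weeks, littermates of mixed sex, as stranded read pairs of 76 nt. There was 1 group of samples with 2 libraries, labelled biological replicates 1 and 2, no treatment and no comparison of conditions. Whole glands hold cortex, medulla, vessels and blood, and in bulk tissue a change in cell numbers and a change in RNA per cell cannot be told apart. Both libraries carried the cortical marker Cyp21a1, steroid 21-hydroxylase, at 14483 and 19341 TPM, and the medullary marker Chga at 2420 and 2083 TPM.

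An intron begins at a donor site, usually with the bases GT, and ends at an acceptor site, usually with AG. Where a donor can be joined to several acceptors, or the reverse, the same gene yields several messenger RNAs. The alternatives include acceptors or donors a few bases apart, cassette exons that are taken in or skipped, mutually exclusive exons and alternative first exons. A shift that is a multiple of 3 bases keeps the reading frame of a coding exon, and other shifts change it.

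The junction table pools its reads and also gives each junction in a pair of read values named R1 and R2, which add up to the total and were not assigned to the libraries. All shares below are the percentage of a group's reads held by 1 junction, with the share among R1 and among R2 reads as the measure of spread, and intervals are exact 95% Clopper-Pearson intervals that cover counting error only. The members held 3596296 of 35587975 junction reads, or 10.1%, with 1780151 in R1 and 1816145 in R2. Reads per member ran from 100 to 201502 with a median of 324, and every member had reads in R1 and in R2. The reads and the score chose the members, so the shares are a description and no test was made of them. At the read limit, 61 members had 100 to 104 reads, with medians of 52 in R1 and 51 in R2, and 73 further junctions with 95 to 99 reads would have joined, with medians of 50 and 48. The score removed no further junction, since 2224 members had a score of 0 and the highest was 0.005. Coordinates are those of mm9. Gene names and sequences come from GENCODE M21 through intron lengths, as no coordinate was converted.

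Acceptor pairs 3 bases apart were the most frequent short arrangement, and the following set shows what such a pair looks like in the messenger RNA. Each line gives coding sequence 5′ to 3′ across the exon border, and capitals mark the bases that are included only when the upstream acceptor is used. The first 5 genes have large read numbers, Ncor1 is split almost evenly, Dazap1 has the lowest upstream share, and the last 2 lines show the less frequent triplets.
Cfd: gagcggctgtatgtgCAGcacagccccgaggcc
Aes: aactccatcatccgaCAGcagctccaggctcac
Sparc: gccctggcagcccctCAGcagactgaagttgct
Fkbp8: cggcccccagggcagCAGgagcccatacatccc
Ssr4: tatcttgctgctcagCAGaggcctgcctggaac
Ncor1: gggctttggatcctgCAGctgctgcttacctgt
Dazap1: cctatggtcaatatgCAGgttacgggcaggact
Ecm1: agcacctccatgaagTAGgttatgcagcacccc
Cnbp: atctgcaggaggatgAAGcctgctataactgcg

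Pairs at other short distances are shown next, and their inserted bases end or begin with the splice site motif of the longer intron. In Dmpk, Plin4 and Gps2 the capitals are the bases added by an upstream acceptor, and in Sf1 and Gatad2a they are the bases added by a downstream donor.
Dmpk, acceptors 4 bases apart: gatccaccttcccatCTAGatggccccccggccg
Plin4, acceptors 4 bases apart: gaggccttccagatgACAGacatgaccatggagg
Gps2, acceptors 4 bases apart: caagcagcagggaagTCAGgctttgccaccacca
Sf1, donors 4 bases apart: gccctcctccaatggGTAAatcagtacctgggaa
Gatad2a, donors 9 bases apart: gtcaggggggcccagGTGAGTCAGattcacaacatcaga

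Whole coding exons are shown for genes whose inclusion levels follow. The Scarb1 exon is printed because its last 3 bases, in capitals, are the stop codon of the transcript that contains it. The exons of Mbnl1, Ptbp1, Acly, Flna and Dctn1 are cassettes of 15 to 78 bases. The 2 exons of Pkm are alternatives of equal length, 167 bases, and capitals there mark the 64 positions at which they differ, with 103 positions alike.
Scarb1, 129 bases: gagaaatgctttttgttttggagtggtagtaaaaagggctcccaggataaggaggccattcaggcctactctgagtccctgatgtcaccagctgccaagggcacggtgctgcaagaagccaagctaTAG
Ptbp1, 78 bases: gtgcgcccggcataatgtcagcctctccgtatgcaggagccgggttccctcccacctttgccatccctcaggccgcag
Mbnl1, 36 bases: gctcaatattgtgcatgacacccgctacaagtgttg
Acly, 30 bases: attcagtcccaagtccaagatccctgcaag
Flna, 24 bases: tgtcaatcggaggtcacgggctag
Dctn1, 15 bases: aggaaccacagcgag
Pkm, nearer exon: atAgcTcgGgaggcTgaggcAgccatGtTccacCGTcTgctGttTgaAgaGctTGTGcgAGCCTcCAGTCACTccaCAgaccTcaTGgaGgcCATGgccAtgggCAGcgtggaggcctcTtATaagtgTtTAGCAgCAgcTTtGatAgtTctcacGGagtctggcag
Pkm, farther exon: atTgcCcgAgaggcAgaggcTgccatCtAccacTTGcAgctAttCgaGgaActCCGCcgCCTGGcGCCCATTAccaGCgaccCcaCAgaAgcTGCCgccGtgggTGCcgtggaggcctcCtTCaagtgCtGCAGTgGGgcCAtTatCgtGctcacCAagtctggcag

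Most groups were simple. Of the 1237 groups, 1144 held 2 junctions, 83 held 3, 7 held 4 and 3 held 5. In groups of 2 junctions the lesser junction held a median of 25.8% of the reads, and it reached 10% or more in 931 groups, or 81.4%. In 259 groups the split was nearly even, with 40% or more in the lesser junction, and in 13 groups the lesser junction held under 1%. By arrangement, 412 groups contained the skipping junction of a cassette, 253 had acceptors under 100 bases apart, 136 had donors under 100 bases apart, and in 436 the alternative sites were farther apart without a cassette. A cassette in this count is any segment between 2 inclusion junctions that another junction skips, whatever its length and the junctions inside it. The class therefore also holds junctions between neighbouring related genes, among them several of its deepest groups, whose shares are uncertain. The median lesser share was 28.5% in the cassette groups and 24.9% in each of the other classes.

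Because a member needed 100 reads, the lowest share a group could show depended on its reads. The 13 groups with a lesser share under 1% had a median of 24192 reads, and the 259 nearly even groups had a median of 504. All spans of the group were intron lengths at a single annotated site of 1 gene in 1 of those 13 groups and in 181 of the 259. Groups whose spans fitted several sites were not counted.

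**Figure D1:**
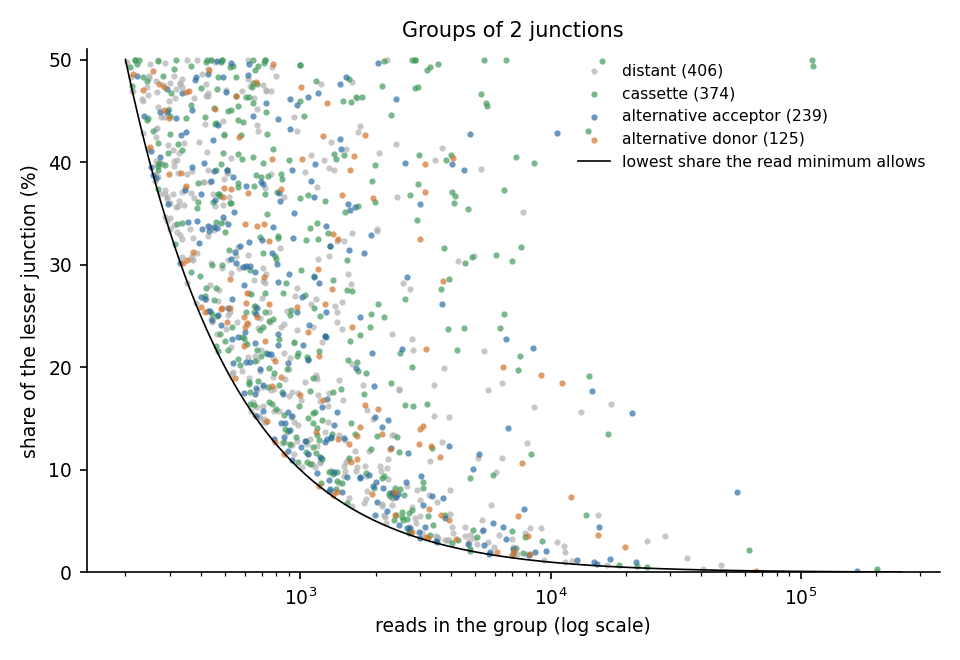
Share of the lesser junction (%) against the reads of the group (log scale) for the 1144 groups of 2 junctions, 1 point per group, coloured by arrangement, with a line at the lowest share that 100 reads allow. No group can fall below the line, which starts at 50% and drops as reads increase, and the 13 shares under 1% appear only at the right, among groups with many reads.

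R1 and R2 gave similar shares in most groups. Over the groups of 2 junctions, the lesser share differed between R1 and R2 by a median of 3.70 percentage points, by under 5 points in 698 groups and by over 20 points in 37. The leading junction was not the same in R1 and R2 in 98 groups. The intervals of the leading junction's share in R1 and in R2 did not overlap in 344 of 1237 groups, or 27.8%, against 8.03% of all sites of the table with 2 or more junctions and 100 or more reads. Nothing is read from this contrast, since the members were chosen on reads of both junctions.

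Among groups with 500 or more reads, the largest difference was in Smarcc2, a subunit of the SWI/SNF chromatin remodelling complex, where the lesser junction had 162 of 481 R1 reads (33.7%) and 224 of 316 R2 reads (70.9%). Tmem256 followed with 36.5% in R1 and 67.1% in R2, and Nfix, a transcription factor of the nuclear factor I family, with 18.8% and 44.3%. In Smarcc2 and Tmem256 the leading junction in R1 was the lesser one in R2. These 3 genes were chosen after their values were seen.

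Acceptor pairs clustered at a distance of 3 bases. Among 269 pairs of neighbouring acceptors under 100 bases apart, 113 were 3 bases apart, 11 were 4 bases apart, 8 were 6 bases apart and 9 were 21 bases apart. Distances that were a multiple of 3 made up 184 of the 269, or 68.4%, and 71 of the 150 pairs, or 47.3%, at 4 to 99 bases. In coding sequence the share was 75.1% of 177 pairs, and in 5′ untranslated sequence it was 46.9% of 49 pairs. Donor pairs showed no such peak. Of 145 donor pairs under 100 bases apart, 4 were 3 bases apart, 9 were 4 bases apart, 10 were 9 bases apart and 8 were 12 bases apart. A multiple of 3 was found in 42.8% of the donor pairs, in 65% of 60 coding pairs and in 20.9% of 43 pairs in 5′ untranslated sequence. These percentages count site pairs, several of which lie in the same gene, and were not tested.

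**Figure D2:**
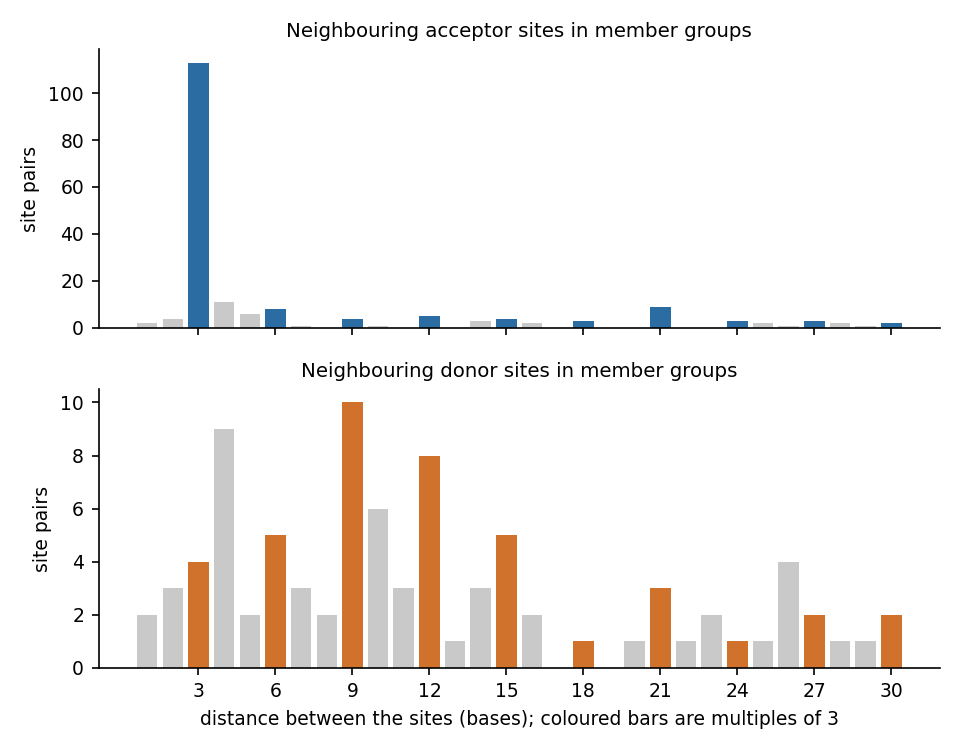
Number of site pairs in member groups by the distance between the sites (1 to 30 bases), for neighbouring acceptors in the upper panel and neighbouring donors in the lower panel, with multiples of 3 coloured. The acceptor panel has a single tall bar of 113 pairs at 3 bases, and the donor panel is highest at 9 bases with 10 pairs and at 4 bases with 9.

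The inserted bases lie at the end of the longer intron in acceptor pairs and at its start in donor pairs. A splice site motif there follows from the use of both sites, so no enrichment is read from its frequency. The triplet between the acceptors could be read for 100 of the 113 pairs and ended in AG in all 100, as CAG in 82, TAG in 12 and AAG in 6. AG at bases 2 and 3 of an exon was found at 5.56% of all annotated exon starts of the reference, which were not chosen for a second acceptor. Over all acceptor pairs under 100 bases apart, the added segment ended in AG in 232 of 233 cases, the exception being a pair 1 base apart in Chga, and over donor pairs it began with GT in 108 of 108. A GT placed 4 bases before the exon end was found at 1.83% of annotated exon ends, which were not chosen for a second donor. The search was for the letters AG and GT on the transcribed strand, and a match is a description of the letters only.

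Both acceptors of each 3-base pair had to meet the read limit, so the use of both follows from the selection. Pairs with a little-used acceptor could be missed, and the shares below describe the selected pairs only. The lesser acceptor held a median of 31.2% of the pair's reads, reached 10% in 99 of 113 pairs and 40% in 26. The upstream acceptor led in 65 pairs, and its share ran from 5.28% to 98.8% with a median of 56.4%. The median upstream share was 54.7% for CAG (82 pairs), 55.6% for TAG (12 pairs) and 68.5% for AAG (6 pairs), and the ranges of the 3 triplets overlapped. R1 and R2 differed by a median of 3.24 points, and by under 5 points in 78 pairs. The largest difference was 18.5 points.

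**Figure D3:**
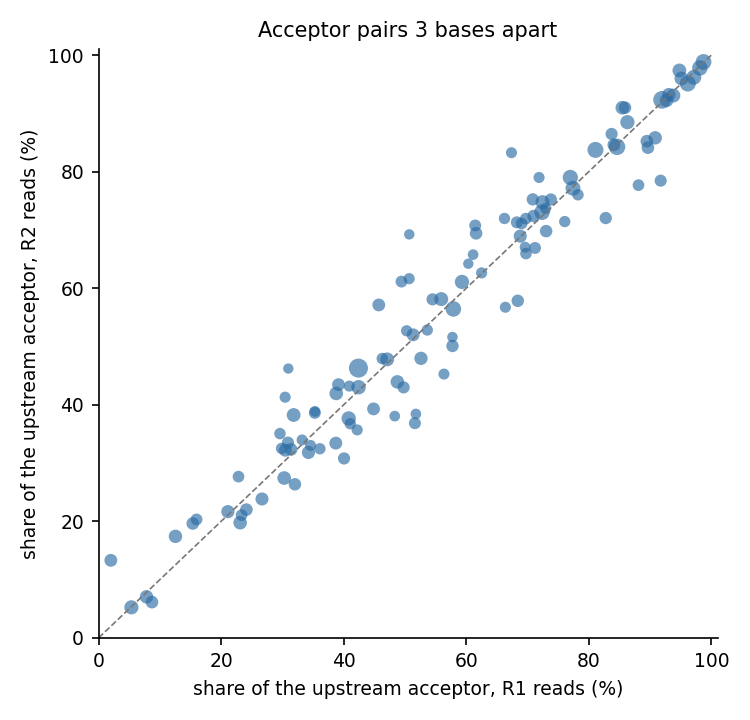
Share of the upstream acceptor (%) among R1 reads and among R2 reads for the 113 acceptor pairs 3 bases apart, 1 point per pair, with larger points for more reads and a dashed line of equal shares. The points follow the line over the whole range from 5.28% to 98.8%, with a median distance between R1 and R2 of 3.24 points.

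Among the named pairs, Cfd stood out by its reads. Cfd encodes complement factor D, or adipsin, a serine protease of the alternative complement pathway made mainly by adipocytes. Its upstream acceptor (chr10:79353726-79354200) had 66342 reads and the acceptor 3 bases downstream had 86981, so the upstream share was 43.3% (95% interval 43.0% to 43.5%), with 42.4% in R1 and 46.3% in R2. R1 gave 50405 and 68485 of these reads and R2 gave 15937 and 18496, so the pooled share is mostly that of R1. The same intron had a donor 3 bases upstream with 109 reads, against 66342 for the main donor, a share of 99.8% for the main donor. Aes, a corepressor of the Groucho family, used its upstream acceptor in 92.1% of 55313 reads (92% in R1, 92.3% in R2). Sparc, a matrix glycoprotein, did so in 84.4% (84.6% and 84.3%), and the oligosaccharyltransferase subunit gene Krtcap2 in 95.6% (96.2% and 95.1%). In Fkbp8, an antiapoptotic immunophilin of mitochondria, the downstream acceptor held 17.7%, with 18.9% in R1 and 16.3% in R2. In Ssr4, a subunit of the translocon-associated protein complex, the downstream acceptor held 21.9%, with 23% in R1 and 21% in R2. Tmem219 was nearer to even, with 42.8% in its lesser acceptor (42.1% and 43.6%). The R1 and R2 shares of these genes lay within 4 points of each other.

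Regulators of transcription were found among the evenly split pairs. Ncor1, a nuclear receptor corepressor, had 1016 and 1028 reads (49.7% upstream, 52.6% in R1 and 48.0% in R2). The homeobox gene Hoxb8 had 1115 and 1301 reads (46.2% upstream, 48.7% and 43.9%). Tcf3 appeared with 2 separate pairs, at 35.9% and 53.6% upstream. At the other end, Dazap1, an RNA-binding protein, used the upstream acceptor in 200 of 3786 reads, or 5.28%, with 5.35% in R1 and 5.24% in R2, while Oaz2, an ornithine decarboxylase antizyme, used it in 96.7%. Tmem70 differed between R1 and R2, with 1.99% and 13.3% upstream. Hoxb8, Ncor1, Tcf3, Dazap1, Oaz2 and Tmem70 were chosen after their values were seen.

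The 4-base acceptor pairs favoured the upstream site. The upstream acceptor led in all 11, and the lesser acceptor held a median of 9.28%. Dmpk, a protein kinase of muscle and other tissues, was the least one-sided of them, with 4747 reads upstream and 3041 downstream (61.0% upstream), whereas Plin4, a lipid droplet coat protein, had 91.2% and Gps2, a subunit of the corepressor complex that contains Ncor1, had 90.7% upstream. The 9 donor pairs 4 bases apart ran from 7.83% for the longer exon in Sf1 to 94.4%. Their added bases began with GT in all 7 that could be read. At 9 bases, the longer exon of Gatad2a, a subunit of the NuRD chromatin complex, held 296 of 1816 (16.3%). Of the donor groups with the most reads, Atp5g3, a subunit of ATP synthase, gave 18.4% to the lesser of donors 10 bases apart (17.0% in R1, 20.4% in R2), and Tmem205 gave 19.2% to donors 5 bases apart (19.2% in R1 and R2). H2-Ke6, a hydroxysteroid dehydrogenase gene of the MHC region, gave 10.7% to donors 21 bases apart (9.10% and 12.8%). Prkcsh, the beta subunit of glucosidase II, gave 20.03% to donors 4 bases apart (19.9% and 20.1%), and Pdcd6ip, an adaptor of membrane scission, gave 7.35% to donors 9 bases apart (6.81% and 7.74%). Cidec, a lipid droplet protein, had 3 donors with 44.0%, 34.8% and 21.1% of reads. The first of these held 46.9% of 3926 R1 reads and 37.9% of 1871 R2 reads. Stk16, a membrane-associated kinase, was the nearest to even of the 6 deepest donor groups with 10% or more, with 40.4% (37.0% and 43.8%). Of the pairs at 4 and 9 bases, Dmpk, Plin4, Gps2 and Gatad2a were chosen after their values were seen.

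Cassette exons were measured from triplets of junctions, 2 that include a segment and 1 that skips it. There were 250 such triplets, and 46 of these held a further qualifying junction inside the segment. Single exons of 500 bases or less accounted for 196 triplets at 186 distinct exons, and 190 of these triplets were in a named gene. Counts of exons below are counts of triplets, so 1 exon can count several times. The inclusion level is the mean of both inclusion junctions divided by that mean plus the skipping reads. Its median was 61.8%, and 156 exons lay between 10% and 90%, 29 above and 11 below. A level can be high through 1 inclusion junction alone. A 46-base segment of Chga had 89.5%, with 186 and 13075 inclusion reads against 779 skipping reads. Exon length had a median of 93.5 bases and ran from 15 to 470. A length that was a multiple of 3 was found in 113 of 196, or 57.7%, in 67.2% of the 128 exons in coding sequence and in 44.8% of the 29 in 5′ untranslated sequence. Exons of such lengths had a median inclusion of 57.4%, and the other 83 exons had 69.2%, with overlapping quartiles (37.4% to 80.3% and 41.5% to 87.6%). R1 and R2 differed by a median of 3.60 points and by under 5 points in 127 exons. In 94 exons the 2 inclusion junctions were within 2-fold of each other. Among these the median inclusion was 56.3% and 67.0% of lengths were a multiple of 3.

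**Figure D4:**
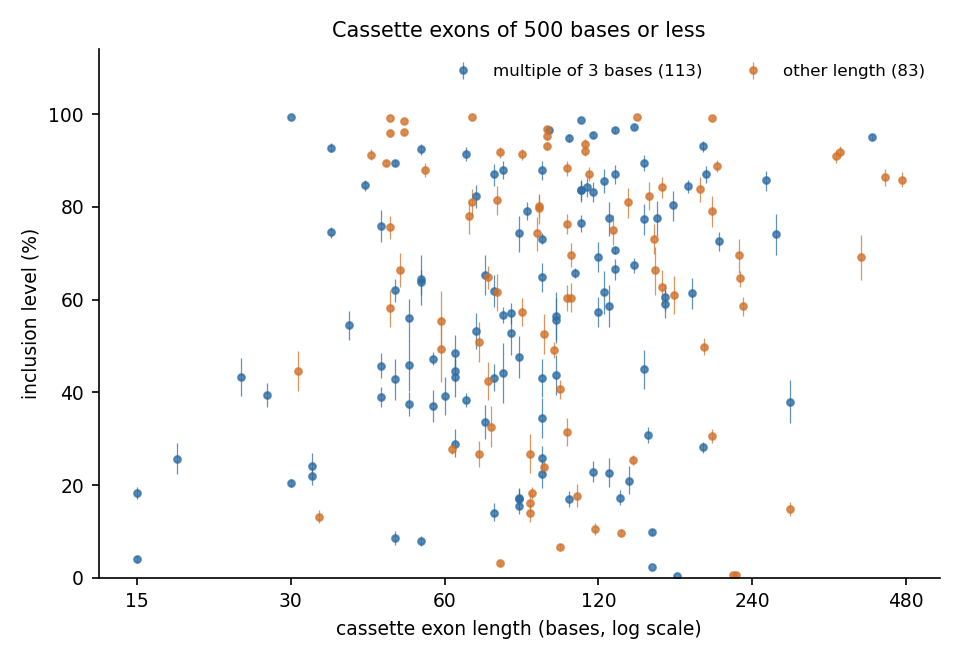
Inclusion level (%) against exon length (bases, log scale) for the 196 cassette exons of 500 bases or less, 1 point per triplet with its 95% interval, coloured by whether the length is a multiple of 3. All 7 exons of 30 bases or less are a multiple of 3, and longer exons spread from near 0% to near 100%.

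Scarb1 had the cassette with the most reads at an intermediate level. Scarb1 encodes the scavenger receptor class B type I, through which adrenal cortical cells take cholesterol esters from high-density lipoprotein. Its 129-base exon (chr5:125761475-125761603) carries the end of the coding sequence, and skipping it is known to yield the receptor form SR-BII with another C-terminal tail. The skipping junction had 5173 reads, the upstream inclusion junction 3430 and the downstream one 21441. Inclusion was 70.6% (95% interval 69.9% to 71.3%), with 70.8% in R1 and 70.5% in R2. The 2 sides of the exon differed more than R1 and R2 did. At the shared donor the inclusion junction held 39.9% of the reads, and at the shared acceptor it held 80.3%.

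Cassettes with many reads in Acly, Pde2a, Bag6, Pcbp2 and Cd74 had levels from 20.4% to 73.1%. The 30-base exon of Acly, the ATP citrate lyase that supplies acetyl-CoA for fatty acid and cholesterol synthesis, was included at 20.4% (20.4% in R1 and in R2), with 1457 and 1586 inclusion reads against 5939 skipping reads. The 62-base exon of Pde2a, a phosphodiesterase stimulated by cyclic GMP, was included at 27.9% (30.9% and 26%). Bag6, a chaperone for membrane proteins, included a 108-base exon at 65.7% (64.8% and 66.6%), and Pcbp2, a poly(rC)-binding protein, a 93-base exon at 73.1% (75.9% and 71.0%). In Cd74, the invariant chain of MHC class II in antigen-presenting cells, the 192-base exon known to encode the thyroglobulin domain of the longer p41 form was included at 28.1% (30.4% and 26%). Its inclusion junctions were unequal, with 442 and 2958 reads against 4342 for skipping. R1 exceeded R2 by about 4 to 5 points in Pde2a, Pcbp2 and Cd74, and the 2 were nearly equal in Acly and Scarb1.

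**Figure D5:**
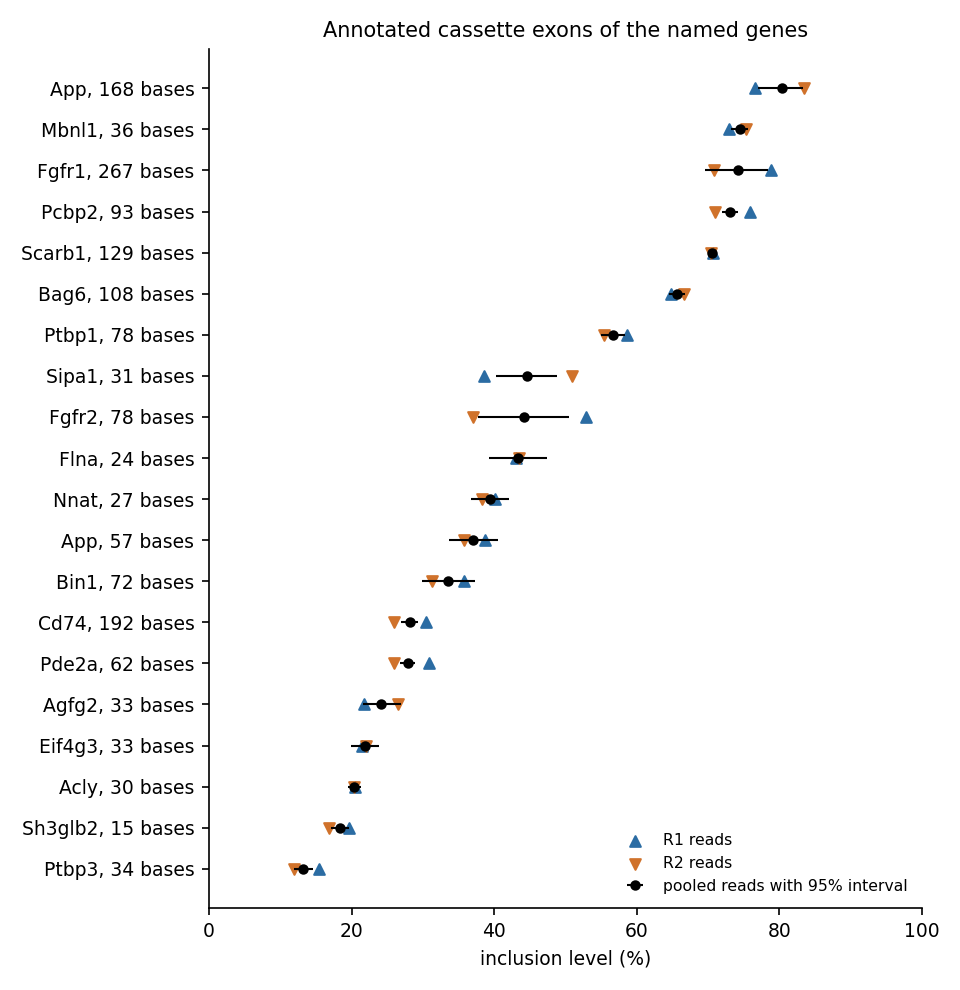
Inclusion level (%) of 20 annotated cassette exons described in the text, with black points and bars for pooled reads and their 95% interval and triangles for R1 and R2 reads, ordered by level. Levels run from Ptbp3 at 13.2% to App at 80.3%, and R1 and R2 lie farthest apart in Fgfr2 (52.9% and 37.0%), which has 137 skipping reads.

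Very short exons were mostly skipped. The 7 cassette exons of 30 bases or less had a median inclusion of 25.7%, and all 7 lengths were a multiple of 3. Dctn1, the large dynactin subunit of the dynein motor, included a 15-base exon at 4.01%, with 105 and 113 inclusion reads against 2611, and with 5.24% in R1 and 2.34% in R2. Sh3glb2, or endophilin B2, included a 15-base exon at 18.3% (19.6% in R1, 16.8% in R2), and the calcium channel gene Cacna1h included an 18-base segment that is not an annotated exon at 25.7% (26.2% and 25.1%). Flna, an actin crosslinker, was higher with 43.3% for 24 bases (43.1% and 43.5%). Nnat, an imprinted membrane proteolipid, had 39.4% for 27 bases, with unequal inclusion junctions of 950 and 118 reads. The interferon-induced gene Ifi27l2a departed from the rest with 99.5% for 30 bases. Just above this length, Sipa1, a GTPase activator for Rap1, included 31 bases at 44.5% (38.5% in R1, 50.97% in R2), Eif4g3, a translation initiation scaffold, included 33 bases at 21.9% and Agfg2 included 33 bases at 24.2%. The short exons were chosen after their values were seen, except that of Acly.

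Genes known from textbooks for alternative exons were listed for comparison. Of 55 such genes, 11 had a group. In 16 of their 18 groups (88.9%, against 78.7% of all groups) the lesser junction held 10% or more. The median was 21.6% against 24.4% over all groups. The median group of this list had fewer reads than the 1043 over all groups. The read limit sets a higher lowest share in groups with fewer reads, so nothing is read from the difference in percentages. The share of all genes with a group was not computed, so nothing is read from the number in this or the later lists. Pkm, pyruvate kinase, was the deepest of the textbook genes. Its nearer exon is known as the M1 exon and its farther one as the M2 exon. From the shared donor (chr9, mm9 position 59519881), 7165 reads joined the M2 exon and 1382 the M1 exon, so M1 held 16.2% (15.7% in R1, 16.6% in R2). Into the shared acceptor, 1116 reads came from the M1 exon and 348 from the M2 exon, so M1 held 76.2% (78.5% and 74.2%). The leading exon was therefore M2 on the upstream side and M1 on the downstream side, in R1 as in R2.

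In App, the amyloid precursor protein, 3 junctions met at the acceptor after the optional exons. The junction from the 168-base exon, which encodes the Kunitz inhibitor domain, had 479 reads (52.5%, with 50.6% in R1 and 54.0% in R2). The junction from the 57-base exon had 308 (33.7%, with 32.5% and 34.7%), and the one that skips both had 126 (13.8%, with 16.9% and 11.3%). The form without both exons is the one known from neurons, and here it was the least used of the 3. Inclusion of the 168-base exon was 80.3% (76.6% in R1, 83.5% in R2) and that of the 57-base exon, relative to its direct skip, was 37.1% (38.8% and 35.8%).

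Other genes of the list had lesser shares from a few percent to near even. Fgfr1 included a 267-base exon at 74.2% (78.8% in R1, 70.9% in R2), and Fgfr2, another fibroblast growth factor receptor, a 78-base exon at 44.2% from 137 skipping reads and 109 and 108 inclusion reads. For Fgfr2 the share of the lesser junction at the acceptor was 58.7% in R1 and 28.6% in R2, so the leading junction there was not the same in R1 and R2. Bin1, which shapes membrane tubules, included a 72-base exon at 33.5% (35.8% and 31.3%). Dnm2, the dynamin of endocytosis, had 3 acceptors for 1 donor, with 1893, 1429 and 921 reads, the first 2 of them 3 bases apart. Vegfa, the vascular endothelial growth factor, had 5406 reads at the leading junction into 1 acceptor and 380 (6.57%) at a junction outside the annotation. The lesser junction held 11.5% in Macf1 and 19.1% in Map4, both linkers or binders of microtubules. In Sec31a, a coat protein of transport vesicles, it held 48.8% of 258 reads (54.3% in R1, 42.4% in R2). That Sec31a junction is outside the annotation, and over every junction at the site its share was 37.5%. Add1, or alpha adducin, gave 32.8% to its lesser junction, with 15.2% in R1 and 41.2% in R2.

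Genes of splicing factors formed another list. Of 48 listed genes, 8 had a group, and in 13 of 20 groups (65%, against 78.7% of all groups) the lesser junction held 10% or more. The median was 14.4% against 24.4%, in groups with a median of 2771 reads against 1043. As the read limit allows lower shares in groups with more reads, nothing is read from these differences. Mbnl1, a regulator of alternative exons that is spliced in many forms, had 8 groups. Its 36-base exon was included at 74.5% (73.0% in R1, 75.3% in R2), and its 95-base exon at 96.7%. The junction that skipped both had 191 reads, or 3.01% at the donor before them. A further Mbnl1 donor had 12.3% in its lesser junction. There 94.1% of the reads lay in junctions that did not meet the limits, and over every junction the share was 0.73%. Ptbp1, the polypyrimidine tract binding protein, included a 78-base exon at 56.7% (58.6% and 55.5%), which lies in the linker between RNA recognition motifs. Its relative Ptbp3 included a 34-base exon at 13.2% (15.5% and 11.9%). Srsf5, a serine and arginine-rich factor, gave 12.5% to the lesser of donors 4 bases apart. Celf1, which binds GU-rich RNA, used the upstream of acceptors 3 bases apart in 35.9% of reads (38.7% and 33.4%). Mbnl2 gave 15.8% to its lesser donor (17.4% and 14.6%). Sf1, the branch point binding protein, had 4 groups with lesser shares from 5.60% to 27.6%.

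The groups of steroid and cholesterol genes had many reads. Of 47 listed genes, 15 had a group, and the lesser junction held 10% or more in 12 of 34 groups (35.3%), against 78.7% of all groups, with a median of 4.11% against 24.4%. Of the 12, 6 were groups of Cyp11b1 and Cyp11b2 that hold a junction joining these related genes, and their shares are uncertain. Another was a Cyp21a1 donor with 11.2% in its lesser junction. There 96.2% of the reads lay in junctions that did not meet the limits, and over every junction the share was 0.43%. The median group of the list had 6337 reads, against 1043 over all groups. The read limit allows lower shares in groups with more reads, so nothing is read from these differences. Cyp21a1 had the deepest junction of all members. Its 105-base intron (chr17:34940389-34940493) had 201502 reads, of which 66698 were R1 and 134804 R2, and the lesser junctions at its sites had 713 (0.35%) and 277 reads (0.14%). The first held 0.69% in R1 and 0.19% in R2, and the second 0.19% and 0.11%. At the donor of the second, 47.8% of the reads lay in junctions that did not meet the limits, and over every junction there its share was 0.07%. Another Cyp21a1 intron had 167844 reads beside 234 for an acceptor 6 bases downstream (0.14%, with 0.16% in R1 and 0.12% in R2). Mice carry a Cyp21a1 pseudogene, so these low shares are uncertain. Cyp11a1, which cleaves the cholesterol side chain, skipped a 200-base exon in 117 reads, or 2.89% at the donor (1.86% in R1, 3.56% in R2) and 0.48% at the acceptor (0.36% and 0.55%). Fdxr, ferredoxin reductase, skipped an 85-base exon in 212 reads (18.9% at the donor, 5.63% at the acceptor).

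Further genes of the list ranged from about 1% to an even split. Nr5a1, the transcription factor SF-1 that sets the steroidogenic programme, had 5 donors for 1 acceptor. They had 3865, 514, 331, 202 and 128 reads, and the leading one held 76.7% (77.7% in R1, 76.1% in R2). Srebf1, a regulator of lipid synthesis, had 388 and 343 reads for donors 10117 bases apart (lesser share 46.9%, with 44.2% and 50.1%). Lipe, hormone-sensitive lipase, gave 104 of 692 reads (15.03%) to a donor farther upstream, with 8.88% in R1 and 25.7% in R2. Mrap, the accessory protein of the ACTH receptor, gave 1.80% to the lesser of its acceptors (1.94% and 1.70%) and 4.32% to the lesser of its donors. Gnas, the stimulatory G protein subunit, split 1084 and 1079 reads at 1 donor (50.1% and 49.9%), and R1 and R2 leaned to opposite sides, with 46.6% and 54.7% for the first. Hsd3b1, 3-beta-hydroxysteroid dehydrogenase, gave 1.11% (0.196% in R1, 1.89% in R2) and 3.52% (3.74% and 3.31%) to the lesser junctions of its groups. Dhcr7, which completes cholesterol synthesis, gave 1.19%, and Akr1b7, an aldose reductase-like enzyme abundant in the adrenal cortex, gave 3.91% (4.21% and 3.80%). The Hsd3b1 junction at 3.52% spans 14779 bases and that of Akr1b7 spans 27268 bases. Both are outside the annotation, and whether they join related neighbouring genes was not tested, so both shares are uncertain. Prkar1a, a regulatory subunit of protein kinase A, gave 3.80% to a second donor.

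Of 20 chromaffin genes, 2 had a group. Chga, chromogranin A of the secretory granules, had 171992 reads at its leading junction (99.3% of 173127 at the donor). A junction that skips the 47-base exon had 779 reads, or 0.45% at the donor (0.57% in R1, 0.30% in R2) and 5.62% at the acceptor (7.73% and 3.45%). Acceptors 1 base to either side of the main one had 186 and 170 reads, or 0.11% and 0.10%. Vamp2, a vesicle SNARE protein, had 2005 and 310 reads, with 13.4% for the lesser junction (11.5% in R1, 16.9% in R2).

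In the distant class, the 6 deepest groups with 10% or more had lesser shares from 12.6% to 35.2%. They were 2 groups of Scd2, 1 of Pkm and those of Uqcr10, Ddx5 and Rbm42. The deepest, in Scd2, had 16.4% in its lesser junction, with 20.4% in R1 and 13.8% in R2. Uqcr10, a subunit of respiratory complex III, gave 15.6% of 13282 reads to its lesser acceptor (14.8% in R1, 16.8% in R2). Ddx5, an RNA helicase, gave 12.6% (13.9% and 11.6%), and Rbm42, an RNA-binding protein, 18.4% (18.8% and 18.3%). The R1 and R2 intervals did not overlap in this Scd2 group, Uqcr10 and Ddx5. Among acceptors, Prpf19, a ubiquitin ligase of the spliceosome, gave 14.1% to an acceptor 57 bases from its leading one (14.5% and 13.9%).

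The groups with the most junctions had 5 each. Besides Nr5a1, they were in Aldoa, the glycolytic aldolase, and in Meg3, an imprinted long noncoding RNA. In Aldoa 5 donors joined 1 acceptor with 60643, 7592, 1499, 311 and 165 reads. The leading donor held 86.4% (80.0% in R1, 91.0% in R2) and the next 10.8% (16.6% and 6.60%). In Meg3 1 donor joined 5 acceptors with 2573, 417, 257, 212 and 112 reads, and the leading one held 72.1% (69.6% and 74.5%). By number of groups, Tle2, a corepressor of the Groucho family as is Aes, came first with 11, followed by Mbnl1 with 8 and by Meg3 and Bag6 with 6 each. In Tle2 3 groups had acceptors 3 bases apart, with lesser shares of 38.2%, 14.4% and 21.8%, and the last 2 of these were the same acceptors reached from different donors.

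Some groups joined neighbouring genes that resemble each other. In 16 triplets both inclusion junctions had the same span to within 1 base, and in 7 of these the joining junction had a read number within 5% of both. Not all of them join 2 genes, since some lie within Wdfy1 or Epn1 and others were tied to no gene. The 7 were in Hba-a1 and Hba-a2, within Wdfy1, or tied to no gene. The alpha globin genes Hba-a1 and Hba-a2 were the clearest case. Their corresponding introns of 134 bases had 56832 and 55314 reads, and a junction of 12951 bases from the first gene into the second had 55310. Their introns of 122 bases had 1439 and 1444 reads, with 1439 for the joining junction. For the beta globin genes Hbb-bt and Hbb-bs, introns of 654 bases had 2718 and 11485 reads and the joining junction had 2723. Globin RNA is a marker of red blood cells.

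The same arrangement was seen in Cyp11b1 and Cyp11b2, the adrenal 11-beta-hydroxylase and aldosterone synthase. Introns of 402 and 401 bases had 3313 and 918 reads, and the junction that joins the genes had 3309 (1637 in R1, 1672 in R2). At another intron the reads were 4179 and 424, with 1873 for the joining junction. At the shared Cyp11b1 acceptor the joining junction held 49.97% in the first case and 30.9% in the second. In Tubg1 and Tubg2, gamma tubulins, joining junctions had 457 and 266 reads. On chromosome 15, an intron tied to Tuba1b, an alpha tubulin, had 8052 reads and a joining junction had 8012. Whether reads of similar exons were placed in both genes was not tested. The shares of these groups are therefore uncertain. Uncertain in the same way were junctions that leave Scd2, a stearoyl-CoA desaturase, for sites 39301 and 41699 bases farther on than its leading junctions (35.2% and 16.4% of reads), since Scd2 is a gene whose relatives lie in the same cluster. Those distant sites were outside the annotation.

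The junction shares were set beside the authors' transcript TPM, another readout of the same libraries. For each of 552 groups whose junctions were all annotated, the TPM of transcripts that contain the lesser junction was taken as a percentage of the TPM of transcripts that contain any junction of the group. The transcript share lay a median of 12.4 points from the junction share, and within 10 points in 242 groups, or 43.8%. The SD between libraries had a median of 2.07 points. The distance was smallest for donor pairs, at 7.80 points, and acceptor pairs, at 9.83 points. It was 14.5 points for the cassette groups and 15.5 points for the distant class. In 122 groups the lesser junction was in the majority by transcripts in both libraries. Across the 552 groups Pearson's r was 0.44 and Spearman's rho 0.46, given as a description because groups of a gene share transcripts.

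Named genes fell on both sides of that distance. The transcript share of the lesser junction was close to the junction share in Fkbp8, at 17.6% ± 1.11 (SD, n = 2), in Celf1, at 33.7% ± 0.22, and in Dnm2, at 22.3% ± 2.88. For the Flna exon the transcripts gave 47.2% ± 4.89 to the lesser junction at both sites, against 43.9% and 42.7% by junction reads. In Sparc it was 38.9% ± 1.34 against 15.6% by junction reads. At the Scarb1 donor the transcripts gave 72.7% ± 0.67 to the inclusion junction, against 39.9% by junction reads. At the Ptbp1 donor they gave 74.0% ± 0.80 to inclusion, against 47.2%. At the acceptor they gave 26.03% ± 0.80 to skipping, against 36.7%. Of these genes Eif4g3 differed most, with 89.0% ± 0.30 for the lesser junction at the donor before its 33-base exon, against 20.5%.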

How the data were processed

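RNA was measured in 2 libraries of 1 group. The members and gene lists were chosen with earlier results of these data known. The deposited junction table, in mm9, holds a read count per junction and the authors' score, for which no label or header states a name or direction. The read count equals R1 plus R2 of the name field in every row, and both were taken as pooled over the libraries. The deposited gene and transcript tables give the authors' TPM, for which the readme files name mm10 and GENCODE M4. The programs behind both tables are not named in these sources.

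Splice sites were grouped by chromosome, strand and position in Python 3.11.15 with pandas 2.3.3 and scipy 1.17.1. An intron runs from the start plus 1 to the end. The reference, GENCODE M21, is on another build than the junctions. A group was therefore tied to a gene where all its spans were the lengths of introns at 1 annotated site of 1 gene, which placed 891 groups (72.0%). A further 247 groups (20.0%) were placed by at least 5 neighbouring junctions, and 60% of those within 50000 bases, at the same distances as in the annotation. The other 99 stayed unnamed. The neighbour method gave the same gene in all 716 groups to which both methods applied. In all, 790 genes were named. The sequences are exonic and were read from the M21 transcripts.

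Named are, in each class, the 6 groups with the most reads and 10% or more in the lesser junction, the 8 acceptor and 4 donor pairs under 10 bases apart with the most reads, the 10 cassette exons with the most reads and an inclusion of 10% to 90%, the 3 groups with the most junctions, and the groups of 4 gene lists. Other genes are named as chosen after their values were seen, and a few results are not reported here. The limit of 500 bases for cassettes, the placement by neighbours, and a minimum of 90% of a gene's TPM in transcripts of known structure for the transcript share were also chosen after seeing the data. A transcript was used where its identifier and length equalled those of the reference, and its gene had 1 TPM or more in both libraries. Grouping, offsets, inclusion and intervals were tested on simulated data.

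With 1 group no test between conditions was possible, and p-values were not computed. Depth was 16943746 R1 and 18644229 R2 reads over all junctions. Reads are not independent molecules. Alternatives were other limits on reads, score, span, offset and TPM, R1 or R2 alone, other denominators and other gene matches.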

Additional observations from a re-analysis of the deposited data

How the results depend on the processing

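No paired analysis was possible because there is 1 group of samples and the junction reads were not assigned to the libraries. Scores of 0.05 or 0.01 or less, or no score limit, gave the same 2300 junctions and 1237 groups. With 50 reads or more per junction there were 4514 junctions, 2406 groups, 216 acceptor and 9 donor pairs at 3 bases and 547 triplets, the median lesser share was 22.4% (27.1% in 3-base acceptor pairs), 74.5% of groups had 10% or more in the lesser junction and median triplet inclusion was 64.4%. With 200 reads or more these were 1085, 582, 69, 2, 103, 30.6% (32.2%), 86.9% and 54.5%, against 58.3% for all 250 triplets, and 79.2% of acceptor distances were a multiple of 3. Acceptor distances under 50 bases gave 74.0%. Without a span limit there were 381 triplets and a median lesser share of 28.0%. Over every junction at the site that share was 25.1%. With R1 or R2 alone it was 26% to 26.4%, and the 3-base median was 30.5% to 30.6%. Median triplet inclusion was 47.1% from the lesser and 64.7% from the greater inclusion junction, 61.8% for single exons, 61.6% without Cyp21a1 and Cyp11b1, and 56.3% for the 94 exons with inclusion junctions within 2-fold, 67.0% of them a multiple of 3. The transcript distance was 12.1 to 12.3 points with 1 library left out and 13.6 points without the minimum of known structure. Of 99 named groups, 8 had a leading junction under 50% in R1 or in R2, and 13 moved by over 2 points when every junction at the site counted. The settings on known structure, single exons, 2-fold, and without Cyp21a1 and Cyp11b1 were chosen after seeing the data. Depth limits the lowest share that could be seen to 100 reads of the group's total.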
